A study of Homo sapiens with 19 samples.

Results

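HUES66, a line of human embryonic stem cells, was set against A375, a human melanoma line, and HEK293, a line derived from human embryonic kidney, by the RNA reads that crossed splice junctions. The comparison used 6 of the 19 libraries of the series: 1 wild-type library of each line, chosen by its title, and 3 HUES66 libraries titled as controls. The controls were wild type by genotype and had received 1 µg/ml doxycycline for 24, 48 or 96 hr, while the labels give no treatment for the wild-type libraries. The name of the HUES66 wild-type library contains the same word for an empty construct as the names of the controls, so its difference from them in treatment cannot be settled from the labels. All 6 libraries were made from ribosomal RNA-depleted total RNA. A375 and HEK293 cells grew in DMEM with serum and HUES66 cells in StemFlex medium on Geltrex, so line and medium cannot be told apart.

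Embryonic stem cells can form every tissue of the body, and they hold this state through a small circuit of transcription factors around POU5F1 (OCT4), SOX2 and NANOG. Cultured human lines resemble the epithelium of the embryo just after implantation: they depend on FGF and Nodal or Activin signals and join through E-cadherin. Splicing also differs with cell state, because RNA-binding proteins such as the RBFOX, MBNL and ESRP families choose which exons enter the mature mRNA. The comparison asked which genes, exons and splice junctions set the stem cell line apart from both other lines.

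The HUES66 wild-type library held 27937149 junction reads and the 3 controls 10664259, 12208870 and 13320107, against 8412075 for A375 and 9605334 for HEK293. Levels are given as counts per 1000000 reads (CPM): the counts of all reads that crossed an annotated junction of a gene, summed and scaled to the library's reads over all genes. They are not scaled for the number or length of introns, so levels of different genes cannot be ranked, and genes without introns have no value. With 1 library of each other line there was no test between lines and no p-value. Ratios carry 95% exact intervals for the ratio of 2 counts and shares carry 95% Wilson intervals; both cover counting error only, and since the reads have no molecular identifiers they are not independent molecules. Every HUES66 library was compared with the same A375 and HEK293 libraries. The labels' library names carry the same prefix for HEK293 and the 24 hr control and other prefixes for wild-type HUES66 and for A375, so apart from that pair the line and whatever the prefix marks cannot be told apart.

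The wild-type HUES66 library differed from each of its controls at fewer genes than from the other lines, and most from the 48 hr control. Between the wild-type library and the 24, 48 and 96 hr controls, 34 (0.259%), 131 (0.997%) and 18 (0.137%) of 13144 genes differed by 4-fold or more. Against A375 and HEK293 the numbers were 3113 and 2335. The counts of genes, exons and junctions that differed from both lines are also given for the controls.

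The label of the line was checked against 5 marker genes. POU5F1 (chr6:31164337-31180731, minus strand, hg38), the central transcription factor of the pluripotent state, was at 1079 CPM in the wild-type HUES66 library and at 961, 1263 and 1095 CPM in the 24, 48 and 96 hr controls. It had 5 reads in A375 (0.634 CPM) and 5 in HEK293 (0.556 CPM). The wild-type level was 1703-fold the A375 level (interval 729 to 5244) and 1941-fold the HEK293 level (832 to 5979), and no HUES66 library came near the other lines. In such bulk samples fewer expressing cells and less RNA per cell cannot be told apart. DPPA4, a chromatin protein of early embryonic cells, was at 516 CPM and, in the controls, at 506, 645 and 547 CPM, with 0 reads in A375 and 2 in HEK293. LIN28A, an RNA-binding protein that blocks maturation of let-7 microRNAs, was at 324 CPM and at 260, 280 and 300 CPM in the controls, with 1 read in A375 and 0 in HEK293. TDGF1 (CRIPTO), the co-receptor for Nodal, was at 196 CPM in the wild-type library and at 165, 222 and 235 CPM in the controls. L1TD1, an RNA-binding protein derived from a LINE-1 element, was at 188 CPM and at 151, 161 and 205 CPM in the controls. Neither TDGF1 nor L1TD1 had a read in A375 or HEK293. With each of those libraries set to 3 reads, TDGF1 was 516-fold and 588-fold higher in HUES66, and L1TD1 494-fold and 563-fold. The lower ends of the exact intervals were 419 and 478 for TDGF1 and 401 and 458 for L1TD1. All 5 markers thus separated the 4 HUES66 libraries from the other 2 without overlap. Of the other lines, A375 had the neural crest factor SOX10 at 107 CPM, MITF at 41.6 CPM and CSPG4 at 141 CPM, but no reads of the pigment genes MLANA and TYR. HEK293 had the neurofilament genes NEFL at 40.3 CPM and NEFM at 12.2 CPM, but 0 reads of the kidney gene PAX8 and 11 of PAX2 (1.22 CPM).

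**Figure D1:**
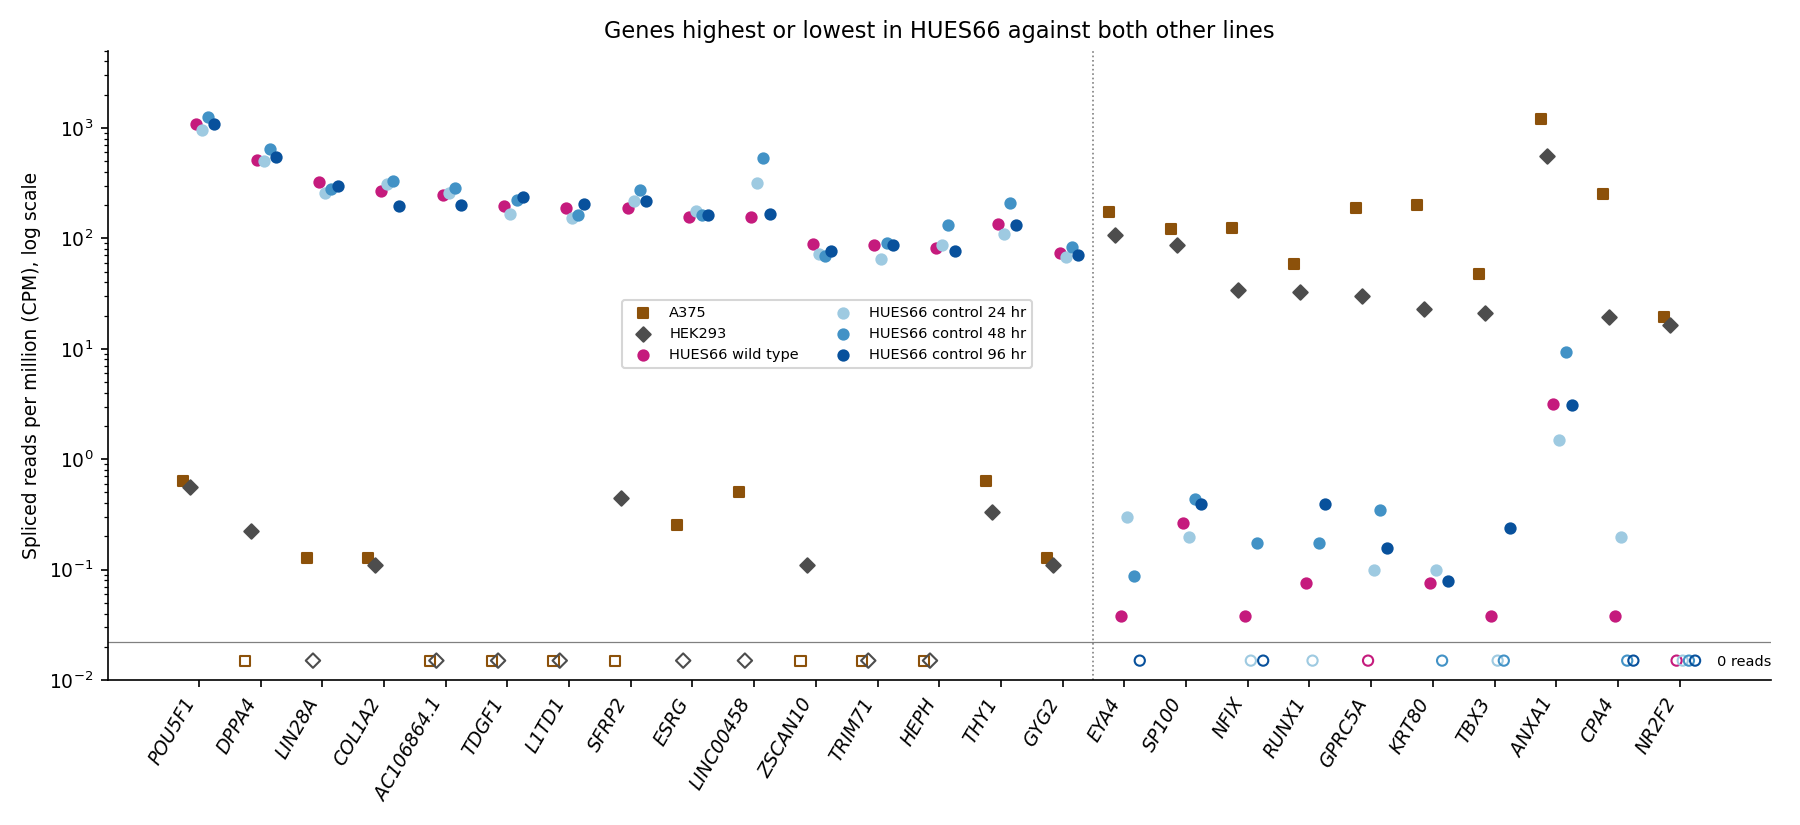
Levels of spliced reads in CPM (log axis) in each of the 6 libraries for the 15 genes with the largest excess in HUES66 (left of the dotted line) and the 10 with the largest deficit (right). Squares are A375, diamonds HEK293 and circles the 4 HUES66 libraries; open symbols in the strip at the bottom mark 0 reads. For POU5F1 the HUES66 circles lie between 961 and 1263 CPM and the other lines below 1 CPM, while for ANXA1 the order is turned round.

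Of 13144 genes with at least 2 CPM in 1 of the 3 wild-type libraries, 764 (5.81%) were at least 4-fold higher in HUES66 than in both other lines and 639 (4.86%) were at least 4-fold lower than in both. Counts of list members given below are to be read beside these shares. The minimum could be met in any 1 line. Members read in HUES66 alone could thus only be called higher, and members nearly absent from HUES66 never could. Of the higher genes, 595 were past the same limit in each of the 3 controls and 620 in both controls other than that at 48 hr; 24 were past it in no control. Of the lower genes, 393 were past it in all 3 controls, 455 without the 48 hr control, and 69 in none. Against A375 alone 1430 genes (10.9%) were higher and 1683 (12.8%) lower, and against HEK293 alone 1236 (9.4%) and 1099 (8.36%). With the 24 hr control, which shares its library prefix with HEK293, in place of the wild-type library, 792 genes were higher and 575 lower. The median log2 ratio of HUES66 over all genes measured was -0.06 against A375 and -0.18 against HEK293, and edgeR's TMM scaling moved these medians to 0.09 and 0.05. Long noncoding RNAs made up 51 (6.68%) of the higher genes and 51 (7.98%) of the lower ones, against 3.56% of the genes measured. Genes at the edge of the limit were CRABP2, 4.03-fold higher, and FDFT1, which was just short of it at 504 CPM against 124 and 126 CPM.

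**Figure D2:**
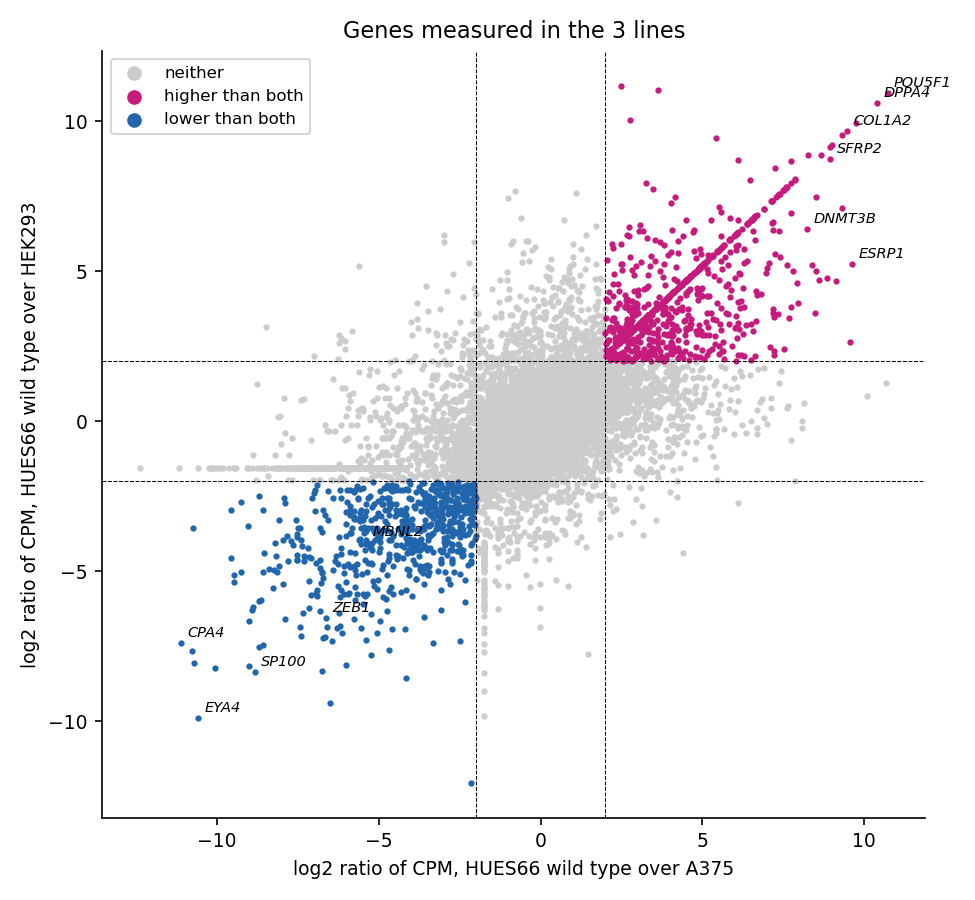
Log2 ratio of the wild-type HUES66 library to A375 (x axis) and to HEK293 (y axis) for the 13144 genes measured, 1 point per gene, with dashed lines at 4-fold. Coloured points are the 764 genes higher and the 639 lower than in both lines. The straight diagonal of points holds genes at the level of 3 reads in both other lines, whose ratios depend on that floor.

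Pluripotency factors formed the most uniform group. Of 15 genes listed, 12 were measured, 11 were past 4-fold over both lines and none was lower, and the same 11 were past it in every control. The list's median log2 ratio was 5.74 against A375 and 6.54 against HEK293, beside medians near 0 for all genes. NANOG, the homeobox factor of the core circuit, was at 28.2 CPM and at 30, 38.5 and 29 CPM in the controls, with 0 reads in both other lines. With those lines set to 3 reads, it was 74.1-fold and 84.5-fold higher. SALL4, a zinc finger factor that binds the same circuit, was at 73.4 CPM with 1 read in each other line. ZFP42 (REX1) was at 34.4 CPM against 0.887 and 0 CPM, and TERT, the catalytic subunit of telomerase, at 17.3 CPM against 2.28 and 1.33 CPM. ZIC2, a zinc finger factor of the primed state, was the member that did not pass: it was at 32.4 CPM against 3.17 in A375 and 11.7 in HEK293. PRDM14, which represses differentiation genes, varied most among the HUES66 libraries, with 53.3 CPM in the wild type and 33.8, 47.3 and 106 CPM in the controls. SOX2 and FOXD3 had no junction reads in any of the 6 libraries, and both are genes without introns, so the data say nothing of their level. UTF1 stayed below the minimum.

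Long noncoding RNAs and the host transcript of a microRNA cluster stood among the genes with the largest excess. AC106864.1 (chr4:112646476-112650051, minus strand) was at 245 CPM in the wild-type HUES66 library and at 257, 283 and 199 CPM in the controls, with 0 reads in A375 and HEK293. With those lines set to 3 reads, it was 643-fold and 734-fold higher (lower interval ends 523 and 596). Its span holds the hairpins of MIR302A, MIR302B, MIR302C, MIR302D and MIR367 (chr4:112647874-112648557), microRNAs known for their abundance in human embryonic stem cells and for use in reprogramming. An intron at chr4:112646969-112648653, which contains all 5 hairpins, had 1450 reads in the wild-type library and 528, 570 and 517 in the controls. Another, at chr4:112647468-112648653, which also contains them, had 1329 reads and 599, 795 and 557. No read crossed either junction in A375 or HEK293. The mature 3p arms, from RefSeq on GRCh38.p14, are shown because 4 of the 5 share their seed, bases 2 to 8, in capitals:
miR-302a-3p: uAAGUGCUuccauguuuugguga
miR-302b-3p: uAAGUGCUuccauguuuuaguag
miR-302c-3p: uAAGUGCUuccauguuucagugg
miR-302d-3p: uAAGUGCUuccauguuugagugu
miR-367-3p: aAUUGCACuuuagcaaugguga
The 4 miR-302 arms carry the seed AAGUGCU and miR-367-3p carries AUUGCAC. The libraries measured the spliced host transcript, not the mature microRNAs.

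Of 8 listed long noncoding RNAs of embryonic stem cells that were measured, 6 were higher in HUES66 than in both lines, in every control too. ESRG, a transcript built on an endogenous retrovirus of the HERV-H family, was at 156 CPM and at 178, 163 and 163 CPM in the controls, with 2 reads in A375 and 0 in HEK293. LINC00458 was at 157 CPM in the wild-type library and at 315, 537 and 167 CPM in the controls, against 4 reads in A375 and 0 in HEK293. LINC00678 was at 54.4 CPM and at 71.9, 76.5 and 57.8 CPM with 0 reads in both lines, as were LNCPRESS1 at 15.2 CPM, LNCPRESS2 at 22 CPM and LINC00698 at 3.75 CPM. AP000943.2, the fifth noncoding gene by size of excess, ranged from 54.4 to 220 CPM over the HUES66 libraries. LINC-PINT, a noncoding RNA induced by p53, was lower, at 0.152 CPM against 5.58 and 1.11 CPM, past the limit in 2 of 3 controls. How reads that fit several copies of a repeat were counted is not given in the sources used here, which bears on ESRG and other transcripts of retroviral origin.

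RNA-binding proteins of stem cells were higher in part. Of 9 measured, LIN28A, L1TD1, ESRP1 and RBM47 passed 4-fold over both lines in all HUES66 libraries and none was lower. ESRP1, the epithelial splicing regulator, was at 301 CPM and at 308, 282 and 344 CPM in the controls, against 1 read in A375 and 8.01 CPM in HEK293, which it exceeded 37.6-fold (interval 29.8 to 48.0). LIN28B and IGF2BP1 were not past the limit, at 35.9 and 622 CPM in HUES66, 31.4 and 321 CPM in HEK293, and 3.68 and 120 CPM in A375. Among the 15 genes with the largest excess was TRIM71, an RNA-binding ubiquitin ligase and let-7 target, at 87.8 CPM with 0 reads in both lines. HEPH, a copper ferroxidase, was at 81.7 CPM with 0 reads in both. THY1, a surface glycoprotein, was at 135 CPM against 5 and 3 reads, and GYG2, a primer of glycogen synthesis, at 74.1 CPM against 1 read in each.

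In the Nodal and TGF-beta list 6 of 14 measured genes (42.9%) were higher and 1 (7.14%) lower, beside 5.81% and 4.86% of all genes. The ligand NODAL was at 3.22 CPM and at 1.39, 5.12 and 3.17 CPM in the controls, with 0 reads in both lines, and passed in 2 of 3 controls. Its antagonists LEFTY1 and LEFTY2, near-identical copies whose reads may be exchanged, were at 3.56 and 3.11 CPM and stood at 11.1 and 13.3 CPM in the 48 hr control. The receptor ACVR2B was at 90.8 CPM against 13.1 and 17.8 CPM, and FOXH1, the DNA-binding partner of SMAD2, at 12.7 CPM with 0 reads in both lines. TGFB1 was lower, at 10.9 CPM against 131 and 79.4 CPM, 12-fold and 7.28-fold. SMAD2 was at 118 CPM against 135 and 163 CPM and SMAD4 at 66.9 CPM against 54 and 73.5 CPM.

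Among 15 FGF genes measured, 3 receptors were higher and none was lower. FGFR1 was at 382 CPM and at 366, 409 and 409 CPM in the controls, against 35.1 and 58.6 CPM. FGFR2 was at 114 CPM against 2.28 and 22.3 CPM, and FGFR4 at 61.8 CPM against 6.47 and 7.78 CPM. The target ETV4 was at 151 CPM in HUES66 and 138 CPM in A375, and at 13.6 CPM in HEK293. Of 13 WNT genes measured, the secreted antagonists SFRP2 and DKK3 and the repressor TCF7L1 were higher, while the antagonist DKK1 and the effector LEF1 were lower. SFRP2 was at 190 CPM and at 216, 277 and 217 CPM in the controls, with 0 reads in A375 and 4 in HEK293. TCF7L1 was at 186 CPM against 0.761 and 7.67 CPM. LEF1 was at 0.53 CPM against 14.5 and 32 CPM.

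The DNA methylation list moved in both directions, with 4 of 11 measured genes higher and 3 lower. DNMT3B, a de novo DNA methyltransferase, was at 1571 CPM, and the controls held between 1267 and 2016 CPM. It was at 5.20 CPM in A375 and 18.7 CPM in HEK293, so the wild-type level was 302-fold (interval 223 to 421) and 84.1-fold higher (72.3 to 98.4). DNMT3A was at 261 CPM against 26.6 and 31 CPM, TET1, which oxidises methylcytosine, at 101 CPM against 6.97 and 22.8 CPM, and ZFP57, a guardian of imprints, at 5.91 CPM with 0 reads in both lines. DNMT1, the maintenance enzyme, was at 602 CPM against 636 and 697 CPM. MBD2, a reader of methylated DNA, was lower by its summed junctions, at 12.6 CPM and 15.7, 16.8 and 15.8 CPM in the controls against 74.4 and 129 CPM (its form also differed, as given with the junction shares). TET2 and GADD45A were past the limit in 1 and 2 controls.

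Several epithelial adhesion genes were higher and several factors that repress them lower. Of 12 epithelial genes measured, 7 were higher in HUES66 than in both lines in all its libraries, and none was lower. CDH1 (E-cadherin) was at 174 CPM and at 209, 186 and 166 CPM in the controls, with 0 reads in A375 and 6.34 CPM in HEK293, a 27.5-fold excess over HEK293 (interval 21.2 to 36.4). CDH3 (P-cadherin) was at 224 CPM against 1.14 and 6.12 CPM, and GRHL2, an activator of epithelial genes, at 64 CPM with 0 and 2 reads. The tight junction genes CLDN6, CLDN7 and CLDN10 were at 35.3, 47.5 and 24 CPM. EPCAM, at 417 CPM, had 0 reads in A375 but 232 CPM in HEK293 and so did not pass. Of 18 mesenchymal and matrix genes, 4 (22.2%) were lower and 1 (5.56%) higher, beside 4.86% and 5.81% of all genes. ZEB1, a repressor of E-cadherin, was at 0.379 CPM against 37.8 and 36 CPM, and in the controls at 0, 0.434 and 0.872 CPM, 99.7-fold below A375 and 95.1-fold below HEK293. ZEB2 and TWIST1, with the same role, and CAV1, a coat protein of caveolae, were lower too. COL1A2, a chain of type I collagen, went the other way, at 269 CPM and at 310, 331 and 197 CPM in the controls, with 1 read in each other line. VIM, an intermediate filament of mesenchymal cells, did not pass and varied among the HUES66 libraries from 149 CPM at 48 hr to 660 CPM at 96 hr.

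The 10 genes with the largest deficit were led by EYA4, a phosphatase and transcriptional coactivator, with 1 read in the wild-type HUES66 library and at most 3 in a control, against 174 CPM in A375 and 108 CPM in HEK293. SP100, a component of nuclear PML bodies, was at 0.265 CPM against 120 and 86.7 CPM, a 454-fold and 327-fold difference. NFIX, RUNX1, TBX3 and NR2F2, all transcription factors of differentiated lineages, were at no more than 5 reads in any HUES66 library. NR2F2 had 0 reads in all 4. With the wild-type library set to 3 reads, it was 171-fold lower than A375 and 145-fold lower than HEK293 (lower interval ends 137 and 116). GPRC5A, a receptor induced by retinoic acid, had 0 reads in the wild-type library. Set to 3 reads there, it was 1660-fold below A375 and 266-fold below HEK293 (lower interval ends 1349 and 215). ANXA1, a membrane-binding annexin, was at 3.14 CPM and at 1.49, 9.29 and 3.09 CPM in the controls against 1217 and 555 CPM, 387-fold (interval 312 to 486) and 177-fold lower (142 to 222). KRT80, a keratin, and CPA4, a carboxypeptidase, completed the group.

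Several markers of differentiated lineages had few or no reads in HUES66. GATA4 and GATA6, factors of endoderm and heart, had 2 and 1 reads in the wild-type library, and GATA2 and TFAP2A, which act in trophectoderm, 3 and 1. PAX3 had 0 reads there. Of the measured genes, 1 of 6 in the ectoderm list, 2 of 4 in the mesoderm and endoderm list and 2 of 5 in the trophectoderm list were lower. None was higher, beside 4.86% of all genes lower and 5.81% higher. Members with few HUES66 reads were measured only where A375 or HEK293 reached 2 CPM, so they could be called lower but not higher. Of 12 mesoderm and endoderm genes with reads, only 4 were measured. These shares, and those of the naive-state and HEK293 lists, therefore say little about HUES66. Below the 2 CPM minimum, AFP was at 1.67 CPM in wild-type HUES66 against 0.380 CPM in A375 and 0 in HEK293. FOXA2 was at 0.795 against 0.127 and 0.111 CPM, and EOMES at 1.25 against 0.254 and 1.56 CPM. In the controls AFP was at 0.693, 0.174 and 1.43 CPM and FOXA2 at 0.099, 0 and 0.238 CPM. GSC, MESP1 and TTR had 0 reads in wild-type HUES66. In the naive-state list 2 of 5 were lower, KLF4 and KLF5, at 0.227 and 1.25 CPM in HUES66. KDR, a VEGF receptor, was higher than in HEK293 only, at 39.2 CPM in the wild type and 56.3, 102 and 52.9 CPM in the controls. The summed level of the mesoderm and endoderm list was 43.7 CPM in the wild-type library and 55.3 to 104 CPM in the controls, against 38.4 CPM in A375 and 36.8 CPM in HEK293, its top being the 48 hr control; its part in the differences of that library was not tested. Of the melanocyte list, PMEL was higher in HUES66 than in both lines, at 50.6 CPM and at 59.3, 68.3 and 36.8 CPM in the controls against 0.507 CPM in A375 and 0.778 CPM in HEK293. MLANA and TYR, which define pigment cells, had 0 reads in HUES66, and MITF was at 0.871 CPM. Of the HEK293 list, 5 of 8 measured genes were lower and none was higher.

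Antigen presentation and cell cycle genes changed less uniformly. B2M, HLA-B, NLRC5 and TAP1 were the 4 genes lower in the wild-type HUES66 library among 14 measured of MHC class I presentation, but none of the 4 passed in all 3 controls. HLA-B was at 14.1 CPM and at 18.1, 32.5 and 12.4 CPM in the controls against 150 and 101 CPM, though reads of near-identical HLA genes may be exchanged. B2M, the light chain, was at 27.3 CPM and at 45, 45.1 and 29.2 CPM against 451 and 116 CPM, and no control passed the limit against HEK293. In the G1 list CDKN2C, an inhibitor of CDK4 and CDK6, had 0 reads in all 4 HUES66 libraries against 70 in A375 and 122 in HEK293. With the wild-type library set to 3 reads, it was 78.1-fold and 119-fold lower. CDKN1A (p21) was at 1.33 CPM against 61.9 and 22.5 CPM and reached 5.73 CPM in the 48 hr control, where it did not pass. CDKN1C was higher, at 3.18 CPM against 0.634 and 0.556 CPM. Of 16 G1 genes measured, 1 was higher (6.25%) and 2 were lower (12.5%), beside 5.81% and 4.86% of all genes.

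**Figure D3:**
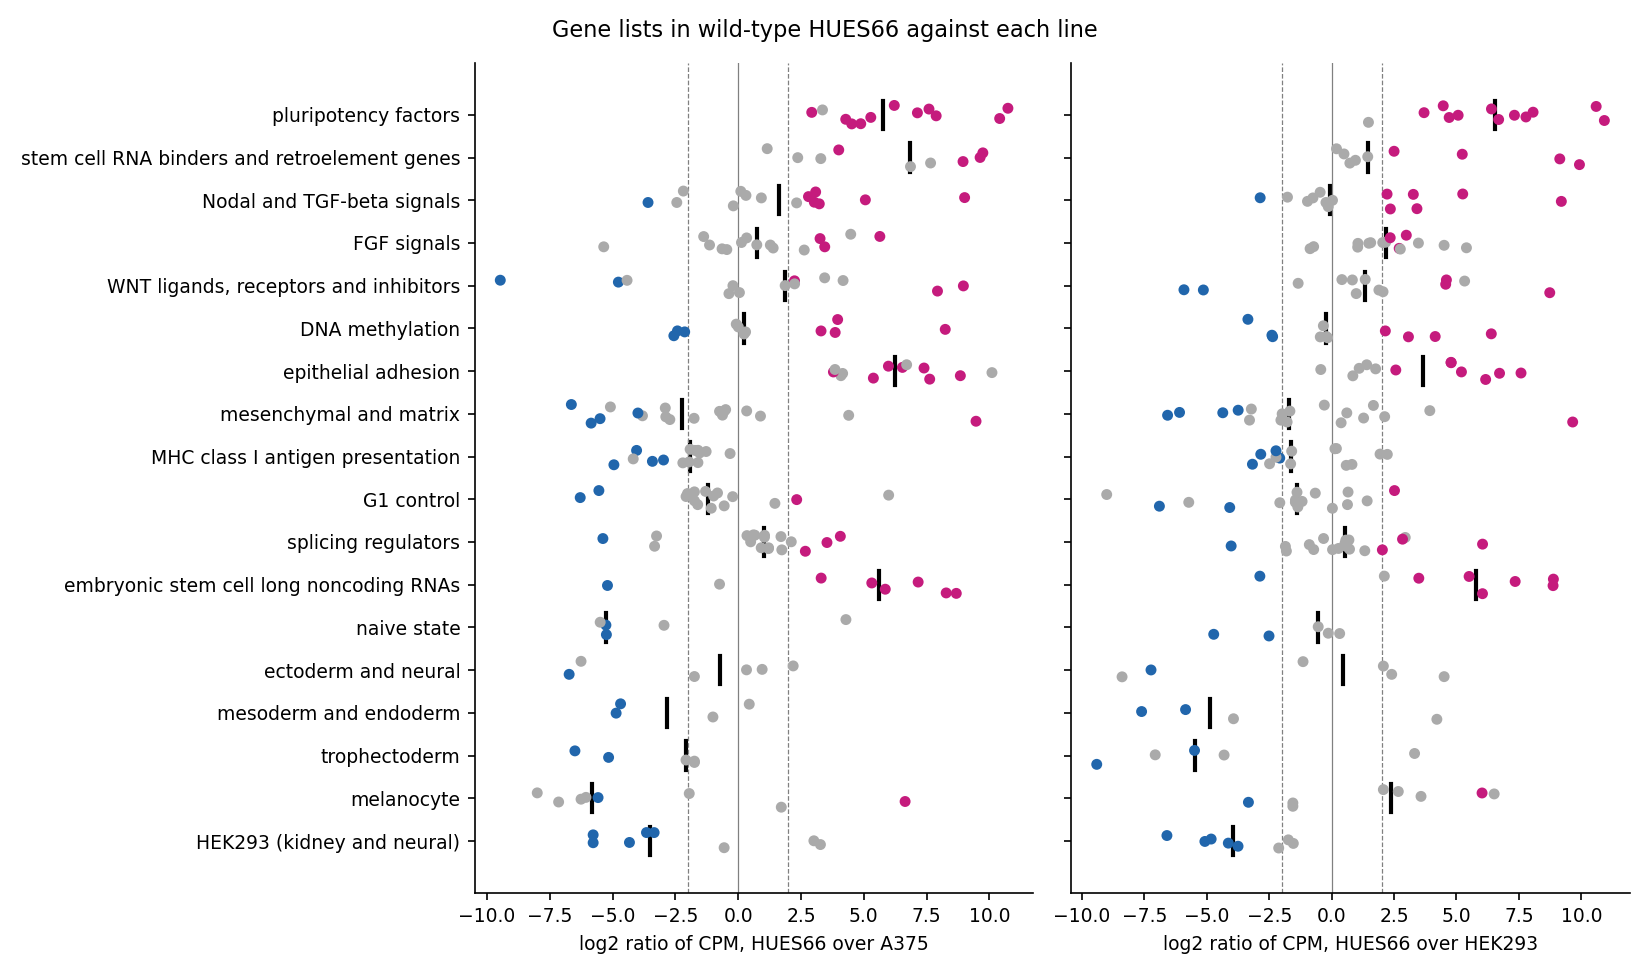
Log2 ratio of the wild-type HUES66 library to A375 (left panel) and HEK293 (right panel) for the measured members of the gene lists, 1 point per gene, coloured by whether the gene was higher or lower than in both lines by 4-fold; the black bar is the list's median. The pluripotency list lies to the right in both panels, with medians of 5.74 and 6.54, and the mesenchymal list to the left, with medians of -2.24 and -1.73.

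Of the genes higher in HUES66 with at least 10 CPM, 430 in all, the highest of the 4 HUES66 libraries was a median of 1.44 times the lowest. For 65 of them the range was 2-fold or more, and in 47 of these 65 the 48 hr control was highest. The widest ranges were those of AC104257.1 (5.22-fold), PKDCC (4.34-fold), GRPR (4.05-fold) and AP000943.2 (4.05-fold). POU5F1 stayed between 961 and 1263 CPM.

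Of 18 splicing regulators measured, 3 were higher, 1 lower and 14 within the limit against at least 1 line, beside 5.81% of all genes higher and 4.86% lower. MBNL2 was at 1.17 CPM and at 1.09, 1.04 and 0.713 CPM in the controls, against 49.1 and 19.1 CPM, 41.8-fold (interval 29 to 62.4) and 16.3-fold lower (11.1 to 24.7). Its relative MBNL1 was at 14.8 CPM and 11.7, 11.7 and 15 CPM against 141 and 53.5 CPM, 9.51-fold and 3.61-fold lower, and so fell short of the limit against HEK293. MBNL proteins are known for controlling exons that differ between stem cells and differentiated cells. RBFOX3 and NOVA2, known from neurons, were higher, at 22 and 6.36 CPM, and SRRM3 passed in 1 control. RBFOX2, which binds GCATG in introns, was at 127 CPM and at 133, 129 and 126 CPM in the controls, against 83.4 CPM in A375 and 105 CPM in HEK293.

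Inclusion of a cassette exon was computed from the mean count over its 2 flanking junctions, taken as a percent of that mean plus the count of the skipping junction. That sum is the number of reads given beside a value. Where 0 reads were found, here and for junctions, the share said to be allowed is 3 reads over the total. It lies below the upper Wilson limit. Of 36057 candidate exons, 11058 had at least 20 reads in each wild-type library. In HUES66, 84 exons of 70 genes (0.76%) were included at least 20 percentage points more than in both other lines, and 60 exons of 57 genes (0.543%) at least 20 points less. Of the 84, 73 could be read in all 3 controls and 51 were past the limit in each (56 without the 48 hr control). For the 60, 48 could be read and 36 passed (38 without it). With the 24 hr control in place of the wild type there were 91 and 72. Between the wild-type library and the controls, 33 of 10242 (0.322%), 118 of 10561 (1.12%) and 18 of 10631 (0.169%) exons were 20 points apart at 24, 48 and 96 hr.

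The exons that differed held larger shares of short exons and of exons that keep the reading frame than those tested at large. Their length was a multiple of 3 in 79.8% of the more included and 78.3% of the less included exons, beside 43.5% of all exons tested and 52.3% of the 2569 tested exons with an inclusion between 10% and 90% in at least 1 line. Microexons of at most 27 nt were 15 of 84 (17.9%) and 8 of 60 (13.3%), beside 3.43% of those 2569 exons. Some of the 15 had reads at only 1 flanking junction, so their inclusion is uncertain. The left and right junctions of a 6 nt AP2M1 exon had 0 and 157 reads in A375, 342 and 0 in HEK293 and 0 and 1698 in wild-type HUES66. In that HUES66 library a 5 nt SEPT7 exon had 0 and 270 and a 3 nt CYTH2 exon 0 and 155. The shares were not recomputed without such exons. The median length was 72 nt in both directions against 107 nt for all tested. GC content was much the same, with medians of 49.2% and 48.6% against 47.4%. Coding sequence held 76 of the 84 exons and 56 of the 60.

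The exons that carry the result are printed in capitals, each with 10 lower-case bases of the exon before and after it, from GENCODE release 29 transcripts on hg38. The first 5 were more included in HUES66 and the last 6 less, and all lie inside coding sequence with a length divisible by 3:
SLK: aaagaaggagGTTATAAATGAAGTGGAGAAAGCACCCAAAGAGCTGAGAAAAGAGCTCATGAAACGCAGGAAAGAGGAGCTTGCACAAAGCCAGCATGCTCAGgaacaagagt
FERMT2: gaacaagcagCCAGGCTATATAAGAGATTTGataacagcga
RALGPS2: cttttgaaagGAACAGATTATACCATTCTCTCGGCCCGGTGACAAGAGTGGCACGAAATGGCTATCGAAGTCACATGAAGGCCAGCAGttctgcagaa
ENAH: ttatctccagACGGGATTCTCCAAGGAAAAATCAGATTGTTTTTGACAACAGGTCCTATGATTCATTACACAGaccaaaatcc
MARK2: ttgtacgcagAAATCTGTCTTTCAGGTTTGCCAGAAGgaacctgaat
ACOT9: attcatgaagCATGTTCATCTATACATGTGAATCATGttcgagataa
FLNA: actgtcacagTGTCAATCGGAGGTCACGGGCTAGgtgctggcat
CTTN: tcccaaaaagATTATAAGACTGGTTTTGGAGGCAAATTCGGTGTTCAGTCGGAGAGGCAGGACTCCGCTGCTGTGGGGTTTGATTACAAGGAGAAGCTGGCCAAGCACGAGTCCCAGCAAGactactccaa
DST: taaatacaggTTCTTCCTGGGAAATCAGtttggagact
VPS29: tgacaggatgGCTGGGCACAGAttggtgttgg
MTA1: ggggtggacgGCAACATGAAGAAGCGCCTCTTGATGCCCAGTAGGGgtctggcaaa

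The largest gain was in SLK, a kinase of the cytoskeleton. Its 93 nt exon (chr10:104010816-104010908, plus strand), printed above, was included at 86.9% in the wild-type HUES66 library (interval 79.8 to 91.8) and in 90%, 87% and 86.2% in the controls (87.7 ± 2.03, SD, n = 3). None of 79 reads included it in A375, which allows a share of up to 3.80%, and it stood at 2.20% in HEK293 (0.605 to 7.66). The skipped form was thus nearly the only form in both other lines and the minor form in HUES66. FERMT2 (kindlin-2), which activates integrins, gained the 21 nt microexon at chr14:52861014-52861034: 93.0% in HUES66 and 93.6%, 96.1% and 95.9% in the controls, against 0 of 29 reads in A375, which allows up to 10.3%, and 12.3% in HEK293. RALGPS2, an exchange factor for Ral, included its 78 nt exon (chr1:178892230-178892307) at 85.4% against 7.55% and 12.1%, and the controls lay between 82.7% and 94.6%. ENAH, an actin regulator whose 63 nt exon (chr1:225504991-225505053, minus strand) is known as an epithelial exon, stood at 75.0% (72.3 to 77.5), with controls of 76.9%, 83.9% and 72.1%. The same exon was at 2.56% in A375 (1.00 to 6.41) and 31.6% in HEK293 (27.9 to 35.5), so the 3 lines were graded.

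Other large gains lay in ADD3, an adductin of the membrane skeleton, with 99.0% against 34.1% and 31.4%, and in ESYT2, which ties the endoplasmic reticulum to the plasma membrane, with 76.0% against 8.51% and 12.6%. FNIP1, a regulator of AMPK signalling, stood at 97.6% against 5.00% and 42.6%. MPRIP, which targets myosin phosphatase, was at 95.2% against 36.9% and 41%. DMAC2 gained an exon of 163 nt, which is not a multiple of 3, to 98.0%. A 257 nt exon of DEPDC1 also met the rule, but had 150 reads at 1 flanking junction and 0 at the other in HUES66, so its share is not given. A 75 nt exon of MBD1, a reader of methylated DNA, was included at 52.2% in HUES66 and had no reads in either other line, which allows up to 7.50% in A375 and 6.12% in HEK293. Its controls were spread, at 47.8%, 75.0% and 37.2%.

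The largest losses were in SCARB1, a lipoprotein receptor, and ACOT9, a mitochondrial thioesterase. The 129 nt exon of SCARB1 (chr12:124782683-124782811) was at 97.8% in A375, 95.5% in HEK293 and 15.2% in HUES66, with 12.5%, 9.30% and 25.0% in the controls. The 27 nt exon of ACOT9 (chrX:23734341-23734367) was included at 97.5% in A375 and 68.9% in HEK293 but in none of 123 reads in HUES66, which allows up to 2.44%, and in none of the reads of any control. FLNA, the actin cross-linker filamin A, had the most reads among the named losses: its 24 nt exon (chrX:154357251-154357274) was at 5.34% (4.36 to 6.53) over 1666 reads, and at 4.64%, 2.31% and 5.04% in the controls. In A375 it was at 84.8% (81.9 to 87.4) and in HEK293 at 68.8% (65.6 to 71.8). CTTN, the actin-binding protein cortactin, included its 111 nt exon (chr11:70421470-70421580) at 26.7% against 96.6% and 88.8%, with the controls at 25.1%, 36.0% and 24.3%. That exon encodes 1 of the repeats by which cortactin binds actin filaments.

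Microexons and other short exons were among the losses. DST, a linker of the cytoskeleton, included its 18 nt exon at 31.1% against 84.9% and 89.9%, with controls of 33.8%, 35.1% and 34.0%. VPS29, a subunit of retromer, included its 12 nt exon at 4.65% against 90% and 57.9%. MTA1, a subunit of the NuRD complex, included its 36 nt exon at 20.7% against 98.1% and 66.7%. LRRFIP2, DENND4C, PLEKHM2 and CLSTN1 were included at 12.5%, 25.0%, 9.17% and 26.6% in HUES66 and at 55.2% or more in both other lines. At the edge of the limit were LMO7, 20.1 points lower, and CREBBP, 19.9 points higher and so outside it.

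**Figure D4:**
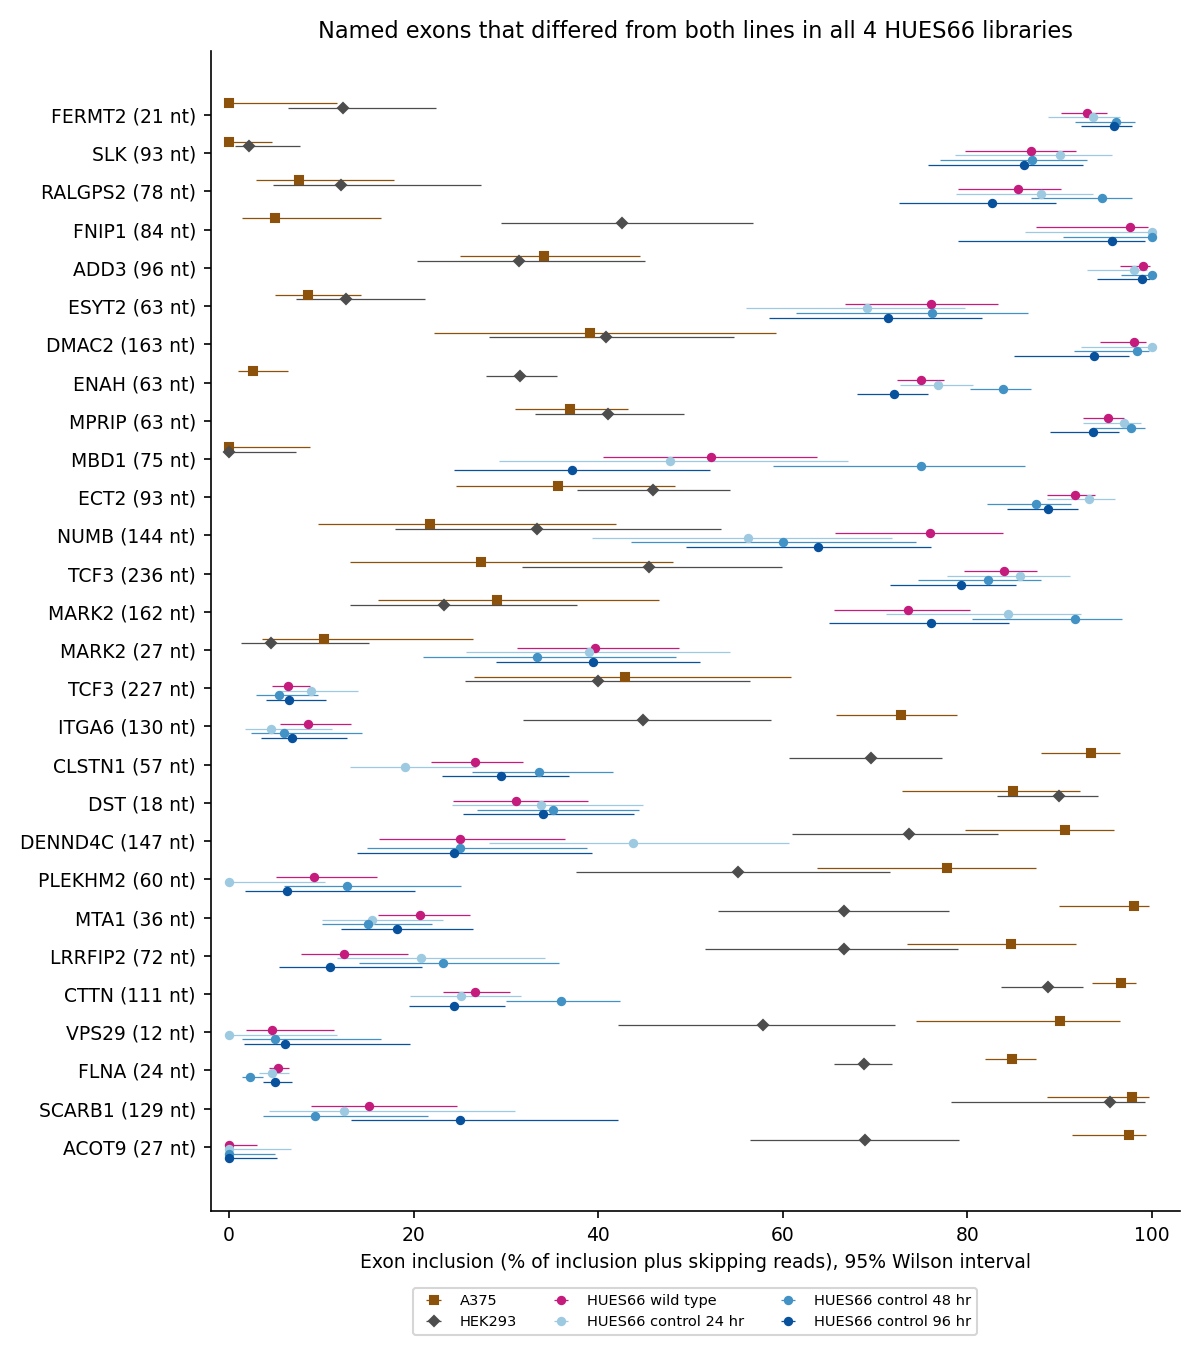
Inclusion (percent) of named exons that differed by 20 points or more in all 4 HUES66 libraries, with 95% Wilson intervals; colours and symbols mark the 6 libraries. The shares of the TCF3 exons rest on unevenly read flanking junctions and are too low. SLK is at 0% and 2.20% in the other lines and 86.9% in HUES66, and ACOT9 at 97.5%, 68.9% and 0%. By the choice of exons, the HUES66 libraries lie on 1 side of both other lines for each.

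Genes whose exons are known to be alternative in stem cells were read from a list of 40. In 32 of them 102 exons were tested, and 20 exons of 14 genes were past 20 points, 13 higher and 7 lower (19.6%, beside 1.30% of all exons tested). The list was drawn up with results of these data known, so its share is a description. In 15 of the 20 the difference was past the limit in every control. TCF3 encodes 2 DNA-binding variants, E12 and E47, from exclusive exons of 236 nt and 227 nt, and both met the rule. The junction that joins these exons to each other had 9 reads in HUES66, 1 in A375 and 3 in HEK293. The mean over flanking junctions includes it and so is too low, and no share is quoted. The other junction of the 236 nt exon had 557 reads beside 54 skipping reads in HUES66, 11 beside 16 in A375 and 38 beside 24 in HEK293. For the 227 nt exon these were 64 beside 525, 22 beside 16 and 24 beside 21. ITGA6, the laminin receptor subunit, included its 130 nt exon, which ends the A form of the protein, at 8.61% (5.52 to 13.2) against 72.8% and 44.9%. ECT2, a protein required for cytokinesis, included a 93 nt exon at 91.6% against 35.6% and 45.9%. MARK2, a polarity kinase, gained 2 exons, of 27 nt (39.7% against 10.3% and 4.55%) and 162 nt (73.5% against 29% and 23.3%). NUMB, a Notch inhibitor, gained a 144 nt exon to 75.9% against 21.7% and 33.3%. Among the exons without the same result in every control were a 33 nt exon of NUMB, a 69 nt exon of CASK and 2 exons of MBNL1, which had 8 to 15 reads in the controls.

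MBNL1 itself was among the genes whose exons met the rule. Its 54 nt exon (chr3:152446704-152446757) was included in all 27 reads of the wild-type HUES66 library (interval 87.5 to 100). It was at 39.6% in A375 and 80% in HEK293 (62.7 to 90.5). Against HEK293 it was exactly at the limit of 20 points, with overlapping intervals. Its 36 nt exon (chr3:152455542-152455577) was at 28.1% (15.6 to 45.4) against 90.7% and 75.6%. At this depth in HUES66, where MBNL1 was low, the controls could not settle either value.

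Junction shares extended the comparison to alternative ends and sites. A junction's share was its part of all reads at the donor or acceptor site it used. Of 38890 shares with at least 30 reads at the site in each line, 229 in 151 genes (0.589%) were at least 20 points higher in HUES66 than in both lines and 224 in 149 genes (0.576%) at least 20 points lower. In all 3 controls 140 and 144 of them passed, and 148 and 152 without the 48 hr control. With the 24 hr control in place of the wild type the numbers were 277 and 259. Of the higher ones, 14 had no reads in either other line. Of the lower ones, 23 were at 2% or less in HUES66. Between the wild-type library and the 24, 48 and 96 hr controls, 91 (0.255%), 288 (0.78%) and 47 (0.126%) junctions were 20 points apart.

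INPP5F encodes a phosphoinositide phosphatase. A junction that follows an internal first exon in some of its annotated transcripts, chr10:119819540-119820845, took 89.3% of the reads at its acceptor (86.8 to 91.3) and 90.4%, 87.3% and 92.4% in the controls. None of 135 reads in A375 and none of 30 in HEK293 used it, which allows up to 2.22% and 10.0%. In both lines all reads came from a junction farther upstream, chr10:119811956-119820845, which held 8.68% in HUES66. MBD2 ended in different exons: from the donor at chr18:54204997 all reads in A375 (107) and HEK293 (195) joined the exon at chr18:54189012, and 1.16% did so in HUES66. In the wild-type HUES66 library 59.0% joined at chr18:54203103 and 39.9% at chr18:54203127. In the controls these junctions shared nearly all reads, with 47.4%, 48.0% and 45.6% for the first and 52.6%, 52.0% and 53.5% for the second. Both junctions lead to a last exon, and transcripts that end there have fewer introns than the other form and give fewer junction reads. At the shared donor the reads were at 6.55 CPM in the wild-type HUES66 library and at 7.72, 8.50 and 9.03 CPM in the controls, against 13.6 and 21.7 CPM. By that measure MBD2 was 2.07-fold (interval 1.61 to 2.65) and 3.31-fold lower (2.68 to 4.08) than in A375 and HEK293, less than by all its junctions.

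NEDD4L, a ubiquitin ligase, differed near its start. The junction chr18:58165862-58245426 held 82.9% of reads at its acceptor in HUES66 against 19.2% and 20.2%, while chr18:58221758-58245426, which follows an alternative first exon, held 1.55% against 74.7% and 73.1%. In EPB41L2, a band 4.1 protein that joins membrane proteins to actin, the junction chr6:130870127-130885095 took 96.7% of reads at its donor against 10.8% and 37.3%. WNK1, a kinase of salt balance, used the junction chr12:881000-881691 for 90.5% of reads at its acceptor against 33.3% and 33.6%, and for 89.6%, 78.2% and 90.6% in the controls. It flanks a 279 nt cassette exon (chr12:880721-880999) already counted among the 84 more included exons. TFDP2, the partner of E2F factors, took 65.3% of reads from the junction chr3:142005545-142028578, against none of 36 reads in A375 and 1.82% in HEK293. The controls were lower there than the wild type, at 38.9%, 38.6% and 42.4%, yet above both other lines.

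Sites at which HUES66 used a pair of forms and the other lines mostly a single form were found in CLIP1, ACTN4 and C8orf59. CLIP1, which tracks microtubule ends, joined its donor to the farther acceptor in 42.4% of HUES66 reads and to a nearer one in 57.6%, the latter being at 0 of 43 reads in A375 and 2.25% in HEK293. ACTN4, an actin cross-linker, used an alternative junction at 55% (51.2 to 58.7) against 1.05% and 3.13%. A CYTH2 junction beside a 3 nt exon also met the rule. The junctions on the left and right of that exon had 26 and 0 reads in A375, 29 and 0 in HEK293 and 0 and 155 in the wild-type HUES66 library, so no share is given. A C8orf59 junction flanks overlapping exons of 125 nt and 128 nt already counted among the 84 more included exons. It was absent from 208 and 184 reads of the other lines and took 64.3% of reads in HUES66. In the controls it took 67.6%, 67.3% and 68.7%. These forms were mixed in HUES66, in contrast to the near-complete switch at INPP5F and MBD2.

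**Figure D5:**
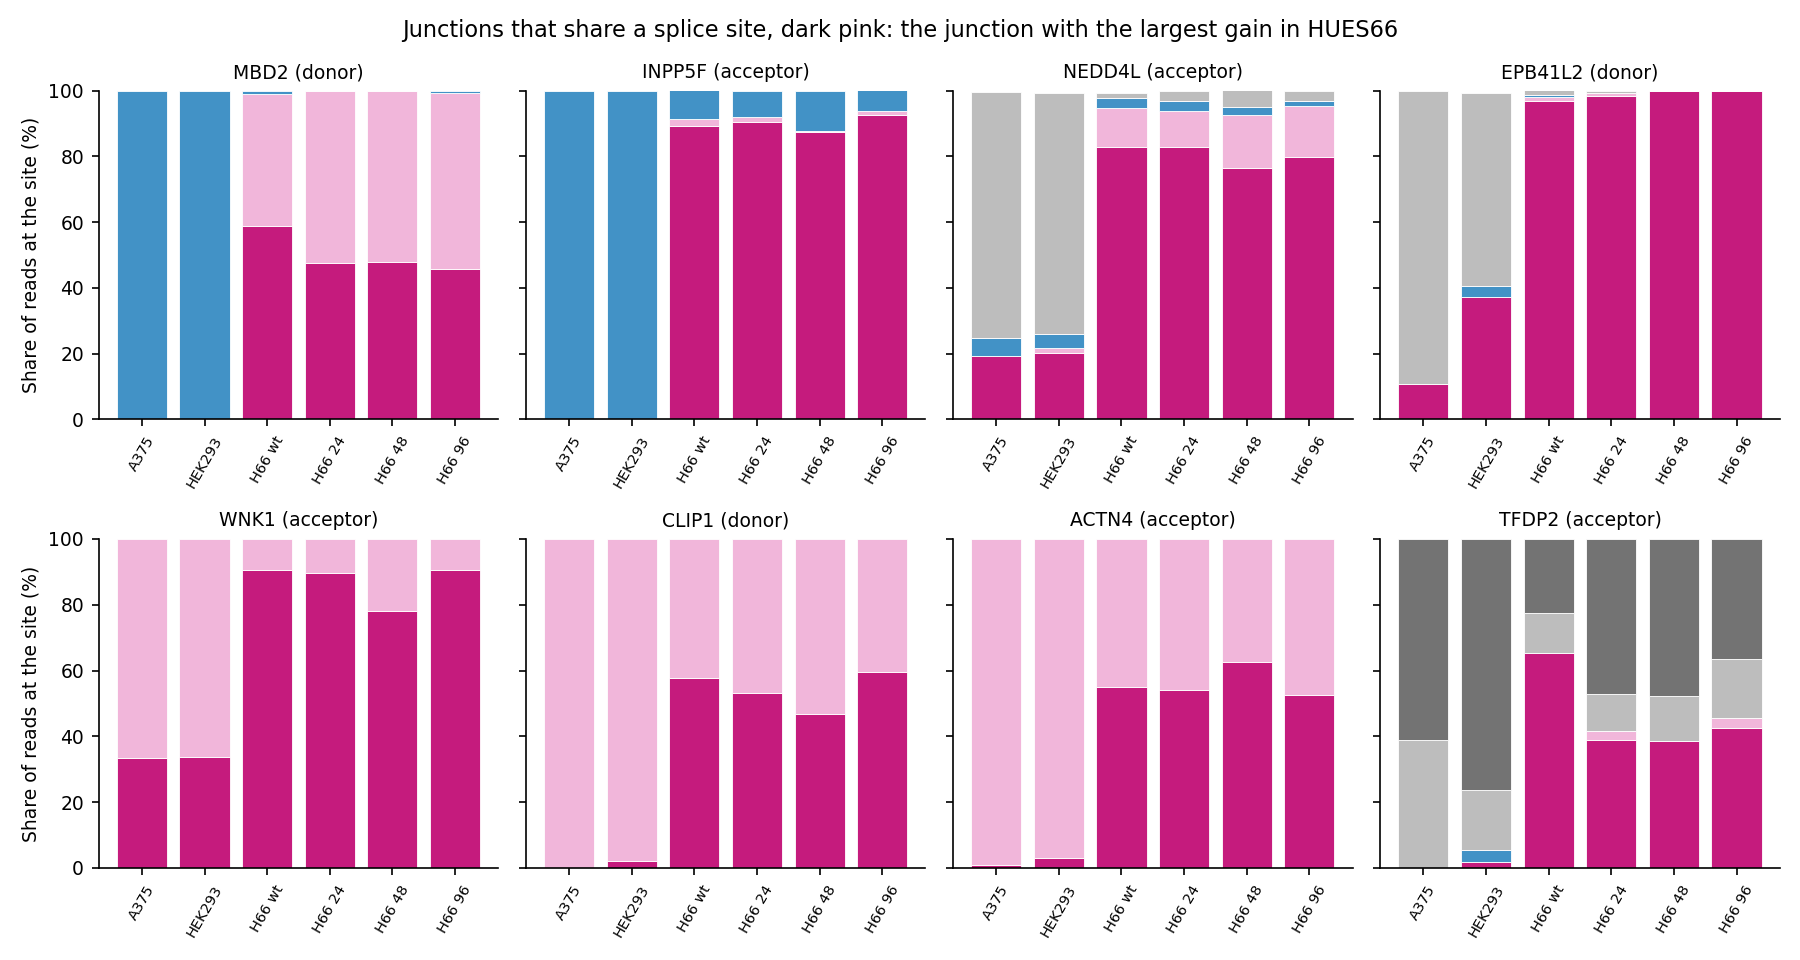
Share of reads (percent) for the junctions at 8 splice sites in the 6 libraries, stacked to 100%. Dark pink is the junction with the largest gain in HUES66 and the other colours are the remaining junctions at the site. In MBD2 the blue junction fills the bars of A375 and HEK293 and holds 1.16% or less in HUES66, and in INPP5F dark pink is absent from both lines and holds 89.3% in the wild-type HUES66 library.

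Junctions outside the GENCODE release used here were compared by presence. With at least 20 reads in the wild-type HUES66 library and none in A375 or HEK293, 883 unannotated junctions were found, of which 507 (57.4%) also had reads in all 3 controls and 258 had none in any. Of the 507, 40 joined annotated ends in a new pairing, 161 had 1 annotated end and 306 had none, and 290 lay inside genes. The HUES66 library was the deepest, and with all libraries thinned to 8393214 reads the count of 883 became 209. By the same rule, A375 alone had 251 and HEK293 alone 83. The junctions with most reads, singled out after their values were seen, included chr3:54632503-54633558 in ESRG, with 1738 reads in the wild type and 1064, 1203 and 888 in the controls. An intergenic junction at chr20:40095471-40271185 had 676 reads and 278, 575 and 489. Others lay in PCDH11X (588 reads), LINC01194 (557 reads) and TRDN (525 reads).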

How the data were processed

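RNA of 6 libraries was compared. Per the file layout and the submitters' processing notes, which name STAR 2.7.1, SAMtools 1.9 and hg38, the authors deposited a table of splice junctions per library with raw counts of reads crossing each; how reads with several placements were counted is not given in the sources used here. Deposited counts were assigned to genes through introns of GENCODE release 29, which covered 93.6% to 94.7% of reads, and divided by library totals. Spike-in and scaffold entries, present in the A375 table alone, were dropped. No per-sample column was left unused, and the deposited tables of exon comparisons were not used here.

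A gene was called past 4-fold against both lines, with a floor of 3 reads per library under each ratio; exons needed 20 reads and 20 points, splice sites 30 reads and 20 points. Named genes were the 5 markers, list members, and the 15 highest, 10 lowest and 5 noncoding genes by the smaller of both ratios with at least 10 CPM and the same call in 3 controls. Named exons were the 10 largest in each direction and list members, and named junctions the 8 largest in each direction. The members, lists and rules were chosen with earlier results of these data known. Where replicates are averaged, errors measure only the spread between these control libraries, which differ in time. Calls were tested on simulated data. Python 3.11.15, pandas 2.3.3, SciPy 1.17.1, R 4.3.3 and edgeR 4.0.16 were used, with DESeq2 1.42.0 for size factors only. Depth limits precision as the intervals show. Alternatives changed scaling, minimum levels, limits, depth and the HUES66 library; those for gene lists were chosen after seeing the data. Values of some list members are not reported here.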

Additional observations from a re-analysis of the deposited data

Results flagged for a closer look

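The A375 table alone held reads outside the chromosomes shared by all libraries: 70 reads on spike-in sequences and 18791 reads on unplaced or unlocalised scaffolds, where the other 5 libraries had none. They were left out of every comparison, and no other result was marked for a closer look.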

How the results depend on the processing

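No paired analysis was possible because A375, HEK293 and wild-type HUES66 have 1 library each. Of 159 alternative values, 131 stayed within 1.5 times the reported count, and 28 did not. The 159 pool the small counts of the gene lists with the counts of genes, exons and junctions. Among the lists only that of MHC class I left the range, so nearly all of the 28 were counts of genes, exons or junctions. Counts of higher and lower genes were 845 and 570 with TMM factors, 800 and 601 with median-of-ratios size factors, 430 and 393 with at least 10 CPM, 432 and 346 at 8-fold and 1360 and 1866 at 2-fold. Exon counts were 134 and 114 with at least 10 reads, 26 and 19 with at least 50 reads, and 48 and 27 at 30 points. When each inclusion junction had to pass alone, they were 58 and 37. Junction counts were 472 and 449 with at least 15 reads, 36 and 35 with at least 100 reads, and 127 and 129 at 30 points. With the 48 hr control in place of the wild type, exon counts were 127 and 107 and junction counts 360 and 341; the cause was not tested. Genes past the limit in the controls numbered 988 with all 3 and 1033 to 1075 when 1 was left out, exons 87 and 92 to 97, and junctions 284 and 300 to 307. Unannotated junctions in HUES66 alone numbered 5858 with at least 5 reads, 307 with at least 50 reads and 209 with all libraries thinned to the same number of junction reads. Of the MHC class I list, 2 genes were called with the 24 hr control and 1 with the 48 hr control, against 4 in the wild type. Thinned to the shallowest library, the counts were 772 and 586 genes, 80 and 63 exons, and 200 and 193 junctions. Depth limits inclusion most where A375 or HEK293 had 20 to 50 reads, with wide intervals.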

Other observations

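Some unannotated junctions were strong in the wild-type HUES66 library and had 0 reads in its 3 controls as well as in A375 and HEK293. The largest were chr14:49565139-49586655 with 2129 reads, chr14:49513118-49586623 with 1928 reads and chr6:27867002-27867106 in the histone gene HIST1H1B with 1487 reads. Of the 883 junctions found in HUES66 but not in the other lines, 25 lay on the mitochondrial genome, which has no known introns, and 2 of those 25 had reads in all 3 controls.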
